A study of Mus musculus with 50 samples.

Results

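The non-immune tissue of 1 old mutant lung was described after ozone exposure, region by region. GeoMx digital spatial profiling collects the barcodes of RNA probes from chosen areas of a stained section. The samples were the 6 CD45- segments of the old section, taken by their labels, out of 48 tissue segments in 4 lung sections of the series. Injured regions 8, 10 and 12 were set against peri-injured regions 7, 9 and 11. Both groups came from 1 section with 1 study identifier, taken as 1 mouse, which was kept germ free, was 80 weeks old, carried mutant surfactant protein C (genotype label SP-CI73T) and was taken 72 h after a 3 h whole-body exposure to 0.8 ppm ozone. The injured and peri-injured groups therefore share genotype, age, exposure and animal, and their labels differ in the region type alone. The paraffin section was stained for CD45, CD68 and DNA. What drives the mutant allele, and how a region was called injured or peri-injured, are not given in the sources used here.

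Alveolar type 2 cells make surfactant protein C; they secrete surfactant and renew the alveolar lining. Ozone is an oxidant gas that damages the lining of airways and alveoli. CD45 marks white blood cells in general, and a CD45- segment of lung holds what is left, which is mainly epithelium, endothelium and connective tissue. The CD68+ segments captured beside them hold macrophages. In such mixed segments, fewer cells of a type and less RNA per cell cannot be told apart.

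Each value is a count of a probe identifier (an RTS number). The files do not pair identifiers with gene names, and none of the 20175 analysed could be matched to the reference tables. Results are therefore given by identifier, with no gene, pathway or cell type attached, and the cell content of the segments could not be checked against named markers. Levels are CPM, counts per 1000000 of the segment's total, after TMM scaling, which corrects for the overall make-up of a library.

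The injured regions were the larger and more deeply counted ones. The injured segments held 108606 counts in region 8, 109064 in region 10 and 120964 in region 12, against 61407 in peri-injured region 7, 56822 in region 9 and 88025 in region 11. No injured total was as low as any peri-injured total. The captured CD45- area, in units the worksheet does not name, was 25228 ± 8107 in injured and 14201 ± 2040 in peri-injured regions (SD, n = 3 each), again without overlap. Counts per area unit averaged 4.84 ± 1.74 in injured and 4.89 ± 1.17 in peri-injured regions (SD, n = 3 each; exact permutation p = 1). In a two-sided exact permutation test over regions, the total count and the area each gave p = 0.1, the smallest value that 3 against 3 can give, and 0.233 after Benjamini-Hochberg adjustment over 7 measures.

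The CD45- share of the captured area was 78.5 ± 18.3% in injured and 68.9 ± 5.27% in peri-injured regions (SD, n = 3 each; exact permutation p = 0.4). At a fixed depth of 56822 counts, 16418 ± 140 identifiers would be detected in injured and 16695 ± 347 in peri-injured regions (SD, n = 3 each; exact permutation p = 0.4). Detected here means any count at all, and no background level was set. The 10 most abundant identifiers of a segment held 5.24 ± 0.36% of its counts in injured and 5.51 ± 0.13% in peri-injured regions (SD, n = 3 each; exact permutation p = 0.3). The share of aligned reads beyond the first per molecule was 94.5 ± 0.0133% in injured and 95.1 ± 0.281% in peri-injured regions (SD, n = 3 each; exact permutation p = 0.1). The smallest adjusted p among the 7 measures was 0.233.

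Region 7, labelled peri-injured, stood with the injured regions in the CD45- segments. Over the 110 identifiers with a mean of at least 500 CPM, the log2 CPM of region 7 had Pearson correlations of 0.93, 0.91 and 0.92 with injured regions 8, 10 and 12, and of 0.79 and 0.77 with peri-injured regions 9 and 11. The injured regions correlated at 0.94 to 0.95 among themselves, and regions 9 and 11 at 0.94 with each other. Along the first principal component, which held 69.8% of the variance, the injured regions 8, 10 and 12 lay at -2.84, -2.05 and -2.12 and region 7 at -2.08, with region 9 at 4.08 and region 11 at 5.00. These correlations run across identifiers within the section, and identifiers are not independent replicates.

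The CD68+ segment of region 7 did not take the same place. Over the same 110 identifiers it correlated at 0.90 and 0.86 with the CD68+ segments of regions 9 and 11, and at 0.88, 0.80 and 0.81 with those of regions 8, 10 and 12. The TMM factors split as the CD45- profiles did, with values of 1.05, 1.07 and 1.00 in injured regions 8, 10 and 12 and 1.06 in region 7, against 0.92 in region 9 and 0.91 in region 11. The labels were kept as deposited, and results are given with and without region 7 where both were computed.

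**Figure D1:**
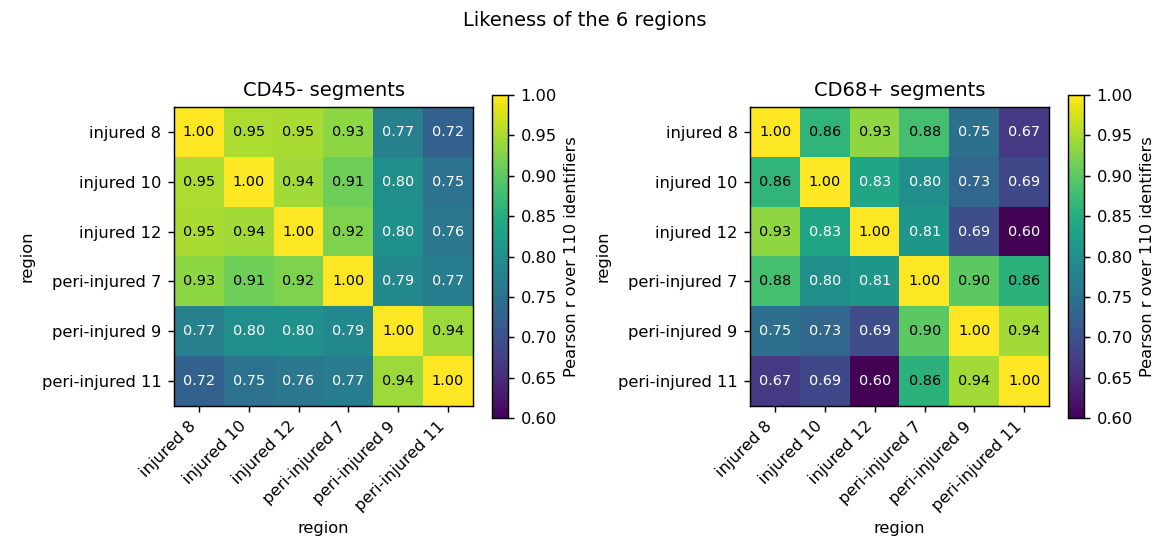
Pearson correlations of log2 CPM between the 6 regions over 110 identifiers, in CD45- segments on the left and in CD68+ segments on the right; colour runs from 0.6 to 1. In CD45- segments region 7 is at 0.91 to 0.93 with the injured regions and at 0.77 to 0.79 with regions 9 and 11.

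The comparison of injured with peri-injured tissue asked which transcripts of the non-immune cells mark the injured spots. Few identifiers separated them: of 1323 tested, 8 were called (0.605%), of which 3 rose in injured regions (0.227% of those tested) and 5 fell (0.378%), by edgeR's quasi-likelihood test with Benjamini-Hochberg adjustment. With upper quartile scaling in place of TMM the split was 6 higher and 3 lower. DESeq2 called 0 of the same identifiers, with 34 at an unadjusted p under 0.05 against 107 in edgeR. A filter at a mean of 50 CPM also left 0 calls in edgeR, with 320 of 4985 at an unadjusted p under 0.05, and after thinning every segment to the shallowest total 3 were called. The p-values rest on the spread between regions of 1 mouse and are too small for any statement on animals. The 3 that rose were RTS0076055, RTS0075359 and RTS0068401, and the 5 that fell were RTS0068460, RTS0068462, RTS0076368, RTS0076369 and RTS0076370. Of these, RTS0076055, RTS0075359, RTS0068460, RTS0068462 and RTS0076370 lie outside the rule for named identifiers and are given because the counts are small.

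RTS0076055 held 5893, 2520 and 8290 CPM in injured regions 8, 10 and 12, against 2825, 632 and 401 CPM in peri-injured regions 7, 9 and 11. Region 7 exceeded injured region 10, so the groups overlapped. The means were 5568 ± 2899 CPM over the injured and 1286 ± 1338 CPM over the peri-injured regions (SD, n = 3 each). The log2 fold change was 2.11 (edgeR adjusted p = 0.000993, SE 0.36), or 4.33-fold higher. Without region 7 it was 3.50, or 11.3-fold. With all 6 regions the call was lost in 4 alternatives, at an adjusted p of 0.670 in the robust edgeR fit, 0.999 in DESeq2, 0.136 in edgeR with the filter at 50 CPM and 0.0551 in edgeR without scaling, with log2 fold changes of 2.11 to 2.18.

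RTS0075359 was counted far less often. It held 114, 154 and 339 CPM in injured regions 8, 10 and 12, from 13, 18 and 41 counts, against 46.1, 19.2 and 0 CPM in peri-injured regions 7, 9 and 11, from 3, 1 and 0 counts. A count of 0 in region 11 allows up to 37.6 CPM, for counting error only. The groups did not overlap, but the identifier passed the count filter through the injured regions alone. The log2 fold change was 3.24 (edgeR adjusted p = 0.00332, SE 0.62). It was 4.55 without region 7, 2.63 without injured region 12 and 2.56 without peri-injured region 11, and in the last 2 cases the call was lost (edgeR adjusted p = 0.200 and 0.169). The call was also lost in DESeq2 (adjusted p = 0.220) and in edgeR with the filter at 50 CPM (adjusted p = 0.0984). With the 3 ozone sections in 1 fit the edgeR adjusted p was 0.0656.

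RTS0068401 was the most even of the identifiers that rose. It held 673, 914 and 603 CPM in injured regions 8, 10 and 12, against 430, 364 and 301 CPM in peri-injured regions 7, 9 and 11, without overlap. Here region 7 lay with the other peri-injured regions rather than with the injured ones. The means were 730 ± 163 CPM over the injured and 365 ± 64.7 CPM over the peri-injured regions (SD, n = 3 each), a log2 fold change of 1.01 (edgeR adjusted p = 0.0287, SE 0.24). The call was lost without injured region 10 (0.82, edgeR adjusted p = 0.242) and without peri-injured region 11 (0.89, edgeR adjusted p = 0.414). It was also lost in DESeq2 (adjusted p = 0.532) and in edgeR with the filter at 50 CPM (adjusted p = 0.136). The edgeR adjusted p was 0.171 with the 3 ozone sections in 1 fit and 0.0957 without scaling.

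The rule for named identifiers also gave RTS0064263, which was not called in the fit of all 6 regions. It held 551, 513 and 603 CPM in injured regions 8, 10 and 12, against 338, 287 and 301 CPM in peri-injured regions 7, 9 and 11. The rule takes only identifiers without overlap, so the lack of overlap was fixed by the choice. Both groups were narrow, with a log2 fold change of 0.84 (edgeR adjusted p = 0.0903, SE 0.23). With region 7 left out it was 0.94 (edgeR adjusted p = 0.0289).

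Among the identifiers that fell, RTS0076368, RTS0076369 and RTS0076370 have consecutive numbers and shared 1 pattern. The numbers on either side were not called. RTS0076367 had a log2 fold change of -0.64 (edgeR adjusted p = 0.512) and RTS0076371 of -0.04. RTS0076370 held 4284, 3733 and 4797 CPM in injured regions 8, 10 and 12, against 7570, 6324 and 7226 CPM in peri-injured regions 7, 9 and 11. RTS0076369 held 2693, 1999 and 2758 CPM in the injured regions, against 4238, 3507 and 5122 CPM in the peri-injured ones. RTS0076368 held 1312, 1281 and 1684 CPM in the injured regions, against 2334, 2146 and 3519 CPM in the peri-injured ones. In none of the 3 did the groups overlap, and region 7 lay on the peri-injured side each time.

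In log2 fold change this was -0.72 (edgeR adjusted p = 0.0394, SE 0.18) for RTS0076370, -0.79 (edgeR adjusted p = 0.0371, SE 0.19) for RTS0076369 and -0.91 (edgeR adjusted p = 0.0197, SE 0.20) for RTS0076368. These are falls of 1.65-fold, 1.73-fold and 1.88-fold. The calls of RTS0076369 and RTS0076370 were lost when any 1 of regions 8, 10, 11 and 12 was left out, and that of RTS0076368 when region 8, 10 or 11 was left out, with log2 fold changes of -0.62 to -0.88 and edgeR adjusted p of 0.103 to 0.530 in these fits. With no region left out, all 3 calls were also lost in DESeq2, and in edgeR without a filter, with the filter at 50 CPM and without scaling. They were lost with the 3 ozone sections in 1 fit too. All 3 identifiers, like RTS0068401, which rose, belong to the list of identifiers that were higher in CD68+ than in CD45- segments of the air section, described further on.

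RTS0068460 and RTS0068462 fell in a different way. RTS0068460 held 778, 777 and 471 CPM in injured regions 8, 10 and 12, against 706, 2146 and 1916 CPM in peri-injured regions 7, 9 and 11. RTS0068462 held 350, 513 and 339 CPM in the injured regions, against 276, 1265 and 1265 CPM in the peri-injured ones. Both calls thus rest on regions 9 and 11, while region 7 lay among or below the injured regions.

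Their log2 fold changes were -1.23 (edgeR adjusted p = 0.00855, SE 0.25) for RTS0068460 and -1.22 (edgeR adjusted p = 0.0296, SE 0.29) for RTS0068462. Without region 7 they were -1.55 and -1.63. Without peri-injured region 11 they were -1.02 (edgeR adjusted p = 0.297) and -0.86 (edgeR adjusted p = 0.709), and without injured region 12 they were -1.03 (edgeR adjusted p = 0.127) and -1.11 (edgeR adjusted p = 0.169). RTS0068462 also lost its call without injured region 8 (-1.15, edgeR adjusted p = 0.139) and without peri-injured region 9 (-0.97, edgeR adjusted p = 0.137).

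**Figure D2:**
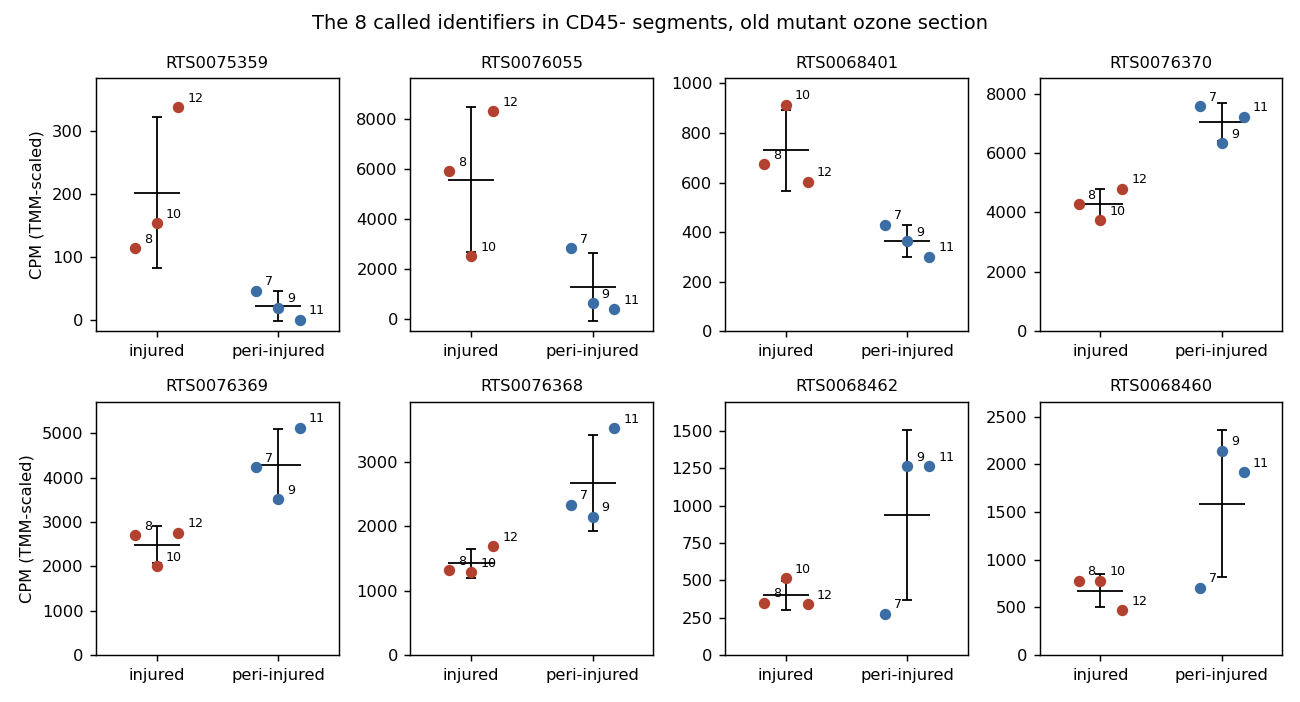
CPM of the 8 called identifiers in CD45- segments, with 1 point per region numbered by region, injured in red and peri-injured in blue; the horizontal line is the mean and the bar ± 1 SD (n = 3). Region 7 lies within the injured range for RTS0076055 and RTS0068460, below it for RTS0068462, and outside it on the peri-injured side for the other 5.

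Scaled by TMM apart from the old section, the CD45- segments of the young wild type air section (12 weeks, filtered air, n = 4 regions of 1 mouse on another collection plate) give an unexposed level. RTS0076055 stood at 267 ± 191 CPM and RTS0075359 at 16.2 ± 11.3 CPM there (SD, n = 4), and RTS0075359 had 3 counts in all. RTS0068401 stood at 157 ± 66.6 CPM (SD, n = 4). The 3 consecutive identifiers stood differently, with RTS0076370 at 6556 ± 2276 CPM, RTS0076369 at 1317 ± 446 CPM and RTS0076368 at 842 ± 460 CPM (SD, n = 4). The air mean of RTS0076370 lay between its injured and peri-injured means, and those of RTS0076369 and RTS0076368 lay below their injured means. RTS0068460 and RTS0068462 stood at 1220 ± 713 and 656 ± 436 CPM (SD, n = 4). The treatment tag of these air samples reads ozone while title and time point read air, and the title was followed. Age, genotype, exposure and plate all differ between the 2 sections, and the scaling was separate, so the levels are given side by side without a comparison.

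Most tested identifiers differed little between the region types. Of the 1323, 655 had a fold change above and 668 below 0 on the log2 scale, with a median of -0.01, a 10th percentile of -0.51 and a 90th percentile of 0.47. Only 17 were at least 2-fold higher and 15 at least 2-fold lower. In 85 identifiers (6.42%) all injured regions lay above all peri-injured regions, and in 101 (7.63%) below them. For a single identifier each outcome is 1 of the 20 arrangements of the regions, so a lack of overlap alone is weak evidence. A low identifier can also pass the count filter through the regions of 1 type alone, which favours a lack of overlap. Both shares include such identifiers and were not corrected for this, so they cannot be set against the share of arrangements. The tested identifiers held 30.4% to 35.7% of the counts of a segment, and a typical one was low, at a median of 140 CPM.

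**Figure D3:**
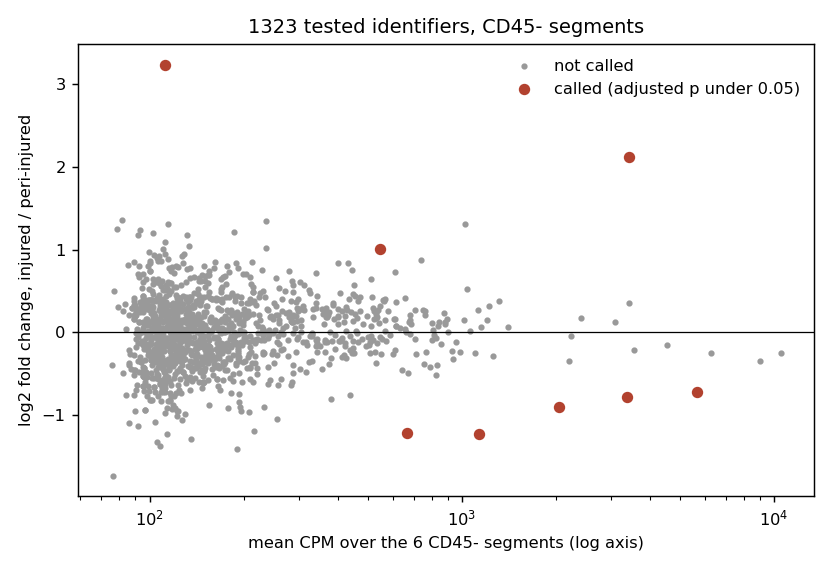
Log2 fold change (injured over peri-injured) against mean CPM over the 6 CD45- segments (log axis), 1 point per tested identifier, with the 8 called in red. The 5 called identifiers that fell are all among the 63 with the highest mean CPM.

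Leaving out region 7 raised the number of calls more than leaving out any other region. Without it, 20 of 1938 identifiers (1.03%) were higher and 10 (0.516%) lower in injured regions by edgeR, over regions of 1 mouse. The count filter then asks for enough counts in fewer segments, and the tested set grew from 1323. Some of the higher ones passed this filter through the injured regions alone. Examples are RTS0068724, at 0 and 37.6 CPM in regions 9 and 11, and RTS0064947, at 19.2 and 37.6 CPM there. The 8 called with all 6 regions were among these 30 (1.55%). Region 7 did not enter this fit, but the 2 means it is set between were those that the calls were chosen on. Its place is therefore not an independent check. On the log2 (CPM + 1) scale region 7 lay nearer to the injured mean than to that of regions 9 and 11 in 17 of the 20 higher ones. It did so in 5 of the 10 lower ones. Over all 1938 identifiers region 7 lay nearer to the injured mean in 60.4%, a share that does not correct for the choice.

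RTS0064300 was the clearest of those gained, and was singled out after its values were seen. It held 1871, 1512 and 983 CPM in injured regions 8, 10 and 12, against 1536, 134 and 87.7 CPM in peri-injured regions 7, 9 and 11. With all 6 regions its log2 difference came to 1.31 (edgeR adjusted p = 0.162, SE 0.40), and without region 7 it was 3.78 (SE 0.29), or 13.8-fold. Region 7 stood within the range of the injured regions for this identifier.

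RTS0076798, also singled out after its values were seen, shows the opposite kind of call. Without region 7 it was lower in injured regions at -3.47 (SE 0.29), but 114 of its counts came from region 11, at 1428 CPM. It held 52.5, 68.3 and 99.1 CPM in injured regions 8, 10 and 12, and 76.8 and 76.6 CPM in regions 7 and 9. Of the 30 identifiers, 2 had most of their counts in a single region.

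**Figure D4:**
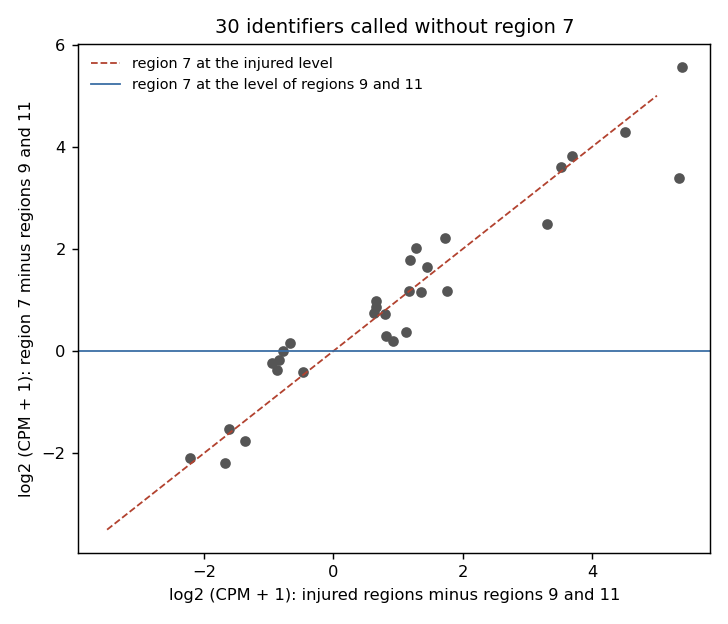
The 30 identifiers called without region 7, with the difference of the injured regions (horizontal) and of region 7 (vertical) from the mean of regions 9 and 11, on the log2 (CPM + 1) scale. The dashed line marks region 7 at the injured level and the horizontal line marks it at the level of regions 9 and 11; 17 of the 20 higher identifiers lie nearer to the injured level. The identifiers were chosen on the difference between the injured regions and regions 9 and 11.

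The CD68+ segments of the same regions gave a second reading of the injury difference. There, 2 of 350 tested identifiers (0.571%) were higher in injured regions by edgeR, over regions of 1 mouse: RTS0076055, at 4.66 (edgeR adjusted p = 0.00264, SE 0.59), and RTS0064300, at 2.44 (edgeR adjusted p = 0.0210, SE 0.42). RTS0076055 held 8157, 5489 and 25811 CPM in the CD68+ segments of injured regions 8, 10 and 12, against 764, 461 and 331.5 CPM in those of peri-injured regions 7, 9 and 11. In these segments region 7 stood with the other peri-injured regions and the groups did not overlap. RTS0064300 held 1048, 1307 and 695 CPM in the injured CD68+ segments, against 382, 72.8 and 116 CPM in the peri-injured ones, with region 7 between.

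The other called identifiers had the same sign in CD68+ segments and did not pass there. RTS0076370 had a log2 fold change of -0.82 (edgeR adjusted p = 0.146, SE 0.26) and RTS0068460 of -2.23 (edgeR adjusted p = 0.202, SE 0.81). RTS0068401 had 0.51 (edgeR adjusted p = 0.291, SE 0.23). Among the 343 identifiers that both kinds of segment tested, 8 were called in CD45- and 2 in CD68+ segments, and 1 in both. Many that were not called also had the same sign in both, and their share is not given here. Both kinds of segment come from the same regions, so a shared sign is not an independent reading.

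Whether the injury difference itself was different in CD45- than in CD68+ segments was tested as an interaction over the 12 segments. None of 947 identifiers passed (0%) by edgeR, where 44 had an unadjusted p under 0.05, and none passed by DESeq2, where 18 did. These fits took the 12 segments as independent, although both segments of a region are paired. With the region as a block, which pairs both segments of a region, 1 passed. It was RTS0076055, whose difference of log2 fold changes (CD45- minus CD68+) was -2.29 (edgeR adjusted p = 6.75e-05, SE 0.31, over regions of 1 mouse), against -2.67 (edgeR adjusted p = 0.287, SE 0.74) without the block. The block fit was not run without region 7. In region 7 RTS0076055 held 2825 CPM in the CD45- and 764 CPM in the CD68+ segment. In region 9 it held 632 and 461 CPM, and in region 11 it held 401 and 331.5 CPM. For the other 7 called identifiers the edgeR adjusted p of the interaction was at least 0.914 without the block.

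**Figure D5:**
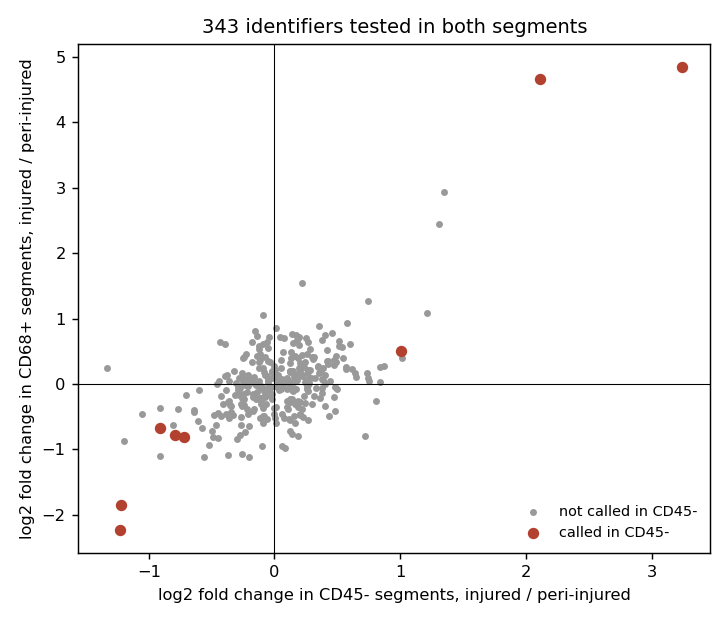
Log2 fold change (injured over peri-injured) in CD45- segments (horizontal) and in CD68+ segments (vertical) for the 343 identifiers tested in both, with those called in CD45- segments in red. The 8 red points have the same sign on both axes, as do many of the others.

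Identifiers of the macrophage segments were followed in the CD45- segments, because CD45 and CD68 staining set the segments. The air section gave 59 identifiers that were higher in CD68+ than in CD45- segments in all 4 air regions, and 59 that were lower. Of the 59 macrophage-enriched identifiers 57 were tested, with 1 called higher, RTS0068401 (against 0.227% of all tested), and 3 called lower (0.378%) in injured regions. Their median log2 fold change was 0.07, against -0.01 for all tested identifiers. Their summed level was 42907 ± 2238 CPM over the injured and 47139 ± 5028 CPM over the peri-injured regions (SD, n = 3 each), so the median and the sum differ in sign. Without the 4 called identifiers the sum was 33997 ± 2031 CPM over the injured and 32779 ± 4048 CPM over the peri-injured regions (SD, n = 3 each), and the difference turned round. The difference of the whole list, injured minus peri-injured, was -4232 CPM, but -1859 CPM without region 7, -6866 CPM without region 9 and -847 CPM without scaling.

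The 25 identifiers that were at least 2-fold enriched in the air CD68+ segments had a lower sum in the injured CD45- segments, which was not tested. Their summed level was 16604, 13958 and 17075 CPM in injured regions 8, 10 and 12, against 24967, 19852 and 25472 CPM in peri-injured regions 7, 9 and 11, without overlap. Of the 23 tested, 4 had a positive and 19 a negative log2 fold change, and the median was -0.46. RTS0076368, RTS0076369 and RTS0076370 were the 3 called, all lower, against 0.378% called lower among all tested identifiers. Without them the sum was 7698 ± 695 CPM over the injured and 9435 ± 1482 CPM over the peri-injured regions (SD, n = 3 each). In the CD68+ segments of the same 6 regions the sum of the 25 was 24094 to 42892 CPM. The part of macrophage RNA in the 3 calls was not tested.

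The 59 identifiers that were lower in air CD68+ segments summed to 57265 ± 1955 CPM over the injured and 64536 ± 6391 CPM over the peri-injured regions (SD, n = 3 each). All 59 were tested, with 21 above and 38 below 0 (655 and 668 of all 1323 tested), and a median log2 fold change of -0.09. By edgeR 0 were called in either direction. Of all tested identifiers 0.605% were called, so 0 among 59 is near that share. The highest sums were those of regions 9 and 11, at 70594 and 65157 CPM, and region 7 had 57858 CPM, beside 56999, 55457 and 59340 CPM in injured regions 8, 10 and 12. The difference of -7271 CPM was -4242 CPM without region 9 and -2113 CPM without scaling. It was not seen in the 22 identifiers that were at least 2-fold lower in air CD68+ segments, which summed to 9670 ± 165 CPM over the injured and 9683 ± 613 CPM over the peri-injured regions (SD, n = 3 each). There region 7 had the highest sum, at 10196 CPM, and region 11 the lowest, at 9004 CPM.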

How the data were processed

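The authors deposited whole-number counts of probe barcodes per segment, made with the GeoMx NGS Pipeline 2.3.4 per the file headers. Libraries came from the mouse whole transcriptome probe kit, per the labels' protocols. A barcode absent from a segment was taken as 0. Of 20238 identifiers, 20175 lie in 1 block of numbers and were used; the other 63 stayed out of library sizes. The deposited worksheets give segment areas with no unit. Region types were compared over the 6 CD45- segments with edgeR 4.0.16 (TMM, filterByExpr with a minimum count of 10, glmQLFit and glmQLFTest, two-sided, Benjamini-Hochberg, threshold 0.05) in R 4.3.3, with library sizes over all 20175 identifiers. The SE is the log2 fold change over the square root of F. Regions, 3 of each type, are the repeats, so p-values measure the spread within 1 section.

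Named identifiers were up to 2 per direction, called, without overlap and above the median level, with empty places filled by the smallest p. Members, lists and tests were chosen with earlier results of these data known. Marker lists by gene name could not be used. Alternatives were upper quartile or no scaling, DESeq2 1.42.0, voom in limma 3.58.1, a robust fit, 2 other filters, the 3 ozone sections in 1 fit, thinning to 56822 counts, library sizes over the tested identifiers, and each region left out. On simulated counts with these depths, 40% of 2-fold and 75% of 4-fold changes were recovered, with 2 false calls among 1398 identifiers. These figures hold for the simulated counts only. Whether the simulated spread between regions matched that of the real segments was not tested. Both segments of a region share that region, which pairs them in the interaction; their deviations from the group means correlated at -0.06 to 0.73 over 110 identifiers. Regions of 1 type differed by more than sampling noise (chi-square per degree of freedom of at least 1.21 over 6 pairs).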

Additional observations from a re-analysis of the deposited data

How the results depend on the processing

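The 8 calls (3 higher, 5 lower) depended on the settings. Upper quartile scaling gave 9 (6 and 3), voom 10 (5 and 5), the robust fit 5 (2 and 3), thinning 3 (2 and 1), no scaling 1 (1 and 0), the 3 sections in 1 fit 2 (1 and 1), no filter 28 (14 and 14, 3 of them among the 8), and DESeq2 and the filter at 50 CPM gave 0, where 34 and 320 had an unadjusted p under 0.05 (107 in edgeR with all choices as reported). Leaving out 1 region gave 2 to 30 calls (1 to 20 higher, 1 to 12 lower): 30 without region 7, 15 without 9, 6 without 10, 5 without 8, 3 without 12 and 2 without 11. Thinning, no scaling and library sizes over the tested identifiers (8 calls) were chosen after seeing the data. The cause of these changes was not tested. Without scaling the median log2 fold change of all tested identifiers was 0.11, against -0.01 with TMM.

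None of the 9 named identifiers changed direction in up to 16 alternatives. RTS0076055 passed in 12 of 16 (log2 1.68 to 3.50), RTS0068401 in 10 of 16 (0.82 to 1.26), RTS0075359 in 10 of 15 (2.56 to 4.55), RTS0068460 and RTS0076368 in 7 of 16 each, RTS0076370 in 6, RTS0076369 in 5, RTS0068462 in 4 and RTS0064263 in 2. RTS0075359 was not kept by the filter after thinning.

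In the interaction, the replicate block gave 1 call and no filter 8, against 0, and each region left out gave 0 without the block. Region numbers are not shared between injured and peri-injured regions. No paired analysis was possible because each region has 1 type, other than in the interaction. Of 49 alternative values of the region measures 45 kept their direction. The 4 that did not were counts per area unit, with -1.04 to 0.535 when 1 region was left out, around a difference of -0.04. The non-immune list's summed difference (injured minus peri-injured) of -7271 CPM was -2113 CPM without scaling and -10610 to -4242 CPM with 1 region left out. That of the macrophage-enriched list, -4232 CPM, was -847 CPM without scaling and -6866 to -1859 CPM with 1 region left out, and its median of 0.07 became -0.46 for the 25 strongest members. With 56822 to 120964 counts per segment, an identifier at the median of 140 CPM rests on few counts.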
